A study of Mus musculus with 12 samples.

Results

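Transcripts of integrins, laminins and the proteins that tie basement membranes together were compared between 4 fibroblast populations sorted from newborn mouse skin. The members were the genes whose symbol on the array is that of a numbered integrin alpha chain, a numbered integrin beta chain or a laminin chain, together with Nid1, Hspg2 and Agrn. Only probe sets with 1 gene symbol were used, and the brightest probe set stood for each gene. This gave 29 of 17097 genes, of which 18 encode integrins (11 alpha and 7 beta chains), 8 encode laminin chains and 3 encode linkers. Alpha chains named by a letter, such as Itgav, were not members. The symbol and no measured value decided which genes were members, but the members were chosen with earlier results of these data known.

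The cells came from the skin of 3 female littermates aged 2 days. The labels name no genotype, strain or treatment. The CD26+ papillary cells lacked Dlk1 and Sca1 at the surface. The Dlk1- Sca1+ and the Dlk1+ Sca1+ cells, both called pre-adipogenic, lacked CD26, and the Dlk1+ reticular cells lacked CD26 and Sca1. All 4 populations were sorted as positive for Pdgfra and CD34 and as negative for CD45, CD117, CD31 and EpCam, after the tissue under the dermis had been removed. Each population of each animal gave 1 array from 4500 sorted cells, so that fewer expressing cells and less RNA per cell cannot be told apart. Each population was defined by its sorting gate, and the gates were the same in the 3 animals as far as the labels say.

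Integrins are cell surface receptors made of an alpha and a beta chain, and the alpha chain largely decides whether collagen, laminin or fibronectin is bound. Laminins are secreted trimers of an alpha, a beta and a gamma chain that assemble into a sheet. Nidogen, encoded by Nid1, joins the laminin sheet to type IV collagen, and the heparan sulfate proteoglycans perlecan (Hspg2) and agrin (Agrn) anchor it to other matrix and to cells. In skin, keratinocytes make the laminin of the epidermal junction, and dermal fibroblasts contribute other chains and nidogen.

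The RefSeq promoter table (GRCm38.p6) held 20 of the 29 members. The 250 bases before the start of 5 genes are shown because these genes stand for the patterns described below. Itga4 and Itga9 were higher in papillary cells, Nid1 and Lamb1 were lower there, and Itga8 was highest in reticular cells. They are written 5′ to 3′ on the strand of the gene, and capitals mark GGGCGG, the GC box, on either strand.
Itga4 (chr2:79255176-79255425, + strand): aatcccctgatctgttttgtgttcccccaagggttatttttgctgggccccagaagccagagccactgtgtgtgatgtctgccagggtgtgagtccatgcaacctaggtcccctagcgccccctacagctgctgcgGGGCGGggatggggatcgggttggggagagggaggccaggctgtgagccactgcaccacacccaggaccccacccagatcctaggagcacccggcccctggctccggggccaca
Itga9 (chr9:118711442-118711691, + strand): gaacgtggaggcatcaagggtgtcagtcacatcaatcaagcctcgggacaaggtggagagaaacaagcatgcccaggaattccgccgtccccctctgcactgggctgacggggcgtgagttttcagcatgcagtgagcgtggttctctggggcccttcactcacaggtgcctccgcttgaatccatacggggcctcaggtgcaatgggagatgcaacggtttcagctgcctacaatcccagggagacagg
Itga8 (chr2:12301945-12302194, - strand): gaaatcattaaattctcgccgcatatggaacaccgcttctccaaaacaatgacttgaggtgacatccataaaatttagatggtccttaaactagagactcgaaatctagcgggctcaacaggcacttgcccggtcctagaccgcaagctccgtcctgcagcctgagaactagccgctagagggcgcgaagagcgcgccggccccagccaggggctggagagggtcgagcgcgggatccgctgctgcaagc
Nid1 (chr13:13437352-13437601, + strand): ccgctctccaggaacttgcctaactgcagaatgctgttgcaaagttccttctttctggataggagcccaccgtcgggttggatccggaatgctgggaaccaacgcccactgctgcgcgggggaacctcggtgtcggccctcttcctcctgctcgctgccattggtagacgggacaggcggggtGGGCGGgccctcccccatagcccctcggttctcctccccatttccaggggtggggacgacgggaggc
Lamb1 (chr12:31265043-31265292, + strand): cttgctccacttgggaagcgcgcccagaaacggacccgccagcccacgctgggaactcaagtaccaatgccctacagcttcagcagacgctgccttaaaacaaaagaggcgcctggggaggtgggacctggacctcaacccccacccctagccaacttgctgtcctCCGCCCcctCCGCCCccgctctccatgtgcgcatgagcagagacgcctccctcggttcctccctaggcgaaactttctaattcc
The GC box was found once in the Itga4 and Nid1 windows and at 2 places in the Lamb1 window, and these letters were not in the Itga9 and Itga8 windows. Over the 20 members with a window, 9 held it, and it lay in 32.9% of 27025 promoters of the same length. The letters CCAAT lay in the Nid1 and Lamb1 windows and in no other member's, against 34.5% of all promoters, and CANNTG, the E box, lay in 14 member windows, against 66% of all. TATAAA and TGANTCA, the AP-1 site, were in 0 of the 20 windows, against 13% and 6.87% of all promoters. Each motif was sought on both strands, and matches of different motifs may share bases. The windows of Itga4, Itga9, Itga8, Nid1 and Lamb1 had 64%, 58.4%, 56.4%, 64.4% and 62% of G and C bases.

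Of the surface proteins that separate the populations, CD26 and Dlk1 were checked, and Sca1 was not analysed here. Dpp4, which encodes CD26, averaged 10.61 ± 0.40 (log2 RMA value, SD, n = 3) in papillary cells, against 6.37 ± 0.20, 6.26 ± 0.06 and 6.30 ± 0.22 in Dlk1- Sca1+, Dlk1+ Sca1+ and reticular cells. Dlk1 was at 9.97 ± 0.14, 11.39 ± 0.19, 12.86 ± 0.04 and 12.97 ± 0.07 in the same order, so that the Dlk1- Sca1+ cells lay between the papillary and the Dlk1+ populations. The mean of 8 dermal fibroblast markers, Col1a1 and Dcn among them, lay between 10.95 and 11.33 on every array. One array, that of the Dlk1- Sca1+ cells of animal 1, stood apart in its epidermal genes and in some melanocyte genes. There, the mean of 10 epidermal markers was 9.80, against 6.39 to 8.30 on the other 11 arrays, and Krt14, a keratin of basal keratinocytes, was at 10.79. The mean of 8 Schwann cell and melanocyte markers was 7.55 there, against 6.01 to 6.90 on the others, with the melanocyte genes Pmel and Dct at 9.13 and 8.98. Erbb3 was at 8.46 there, against 5.61 to 6.76 on the others. Sox10, Mbp and S100b, at 7.19, 6.48 and 4.99 there, lay within the range of the other arrays. Of the 8 markers, 4 were called lower in papillary cells than in the Dlk1- Sca1+ population, and 1 without that array. The part of Schwann cells and melanocytes was not tested. Member differences that this array moved are given with and without it.

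Of the 29 members, 18 differed among the 4 populations in limma's moderated F-test (adjusted p under 0.05), against 35.7% of all genes tested. In the comparisons of 2 populations, 19 members were called at least once and 10 in none. The share of all genes called at least once was not computed, so these counts have no background to be set against. The median absolute log2 difference of the members was 0.56 between papillary and Dlk1- Sca1+ cells, 0.55 between papillary and Dlk1+ Sca1+ cells and 0.56 between papillary and reticular cells. The same medians over all genes were 0.14 in each case. Among the populations without CD26 they were 0.15 for Dlk1- Sca1+ against Dlk1+ Sca1+ cells, 0.24 for Dlk1- Sca1+ against reticular cells and 0.12 for Dlk1+ Sca1+ against reticular cells, and the same medians over all genes were 0.09, 0.12 and 0.09.

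**Figure D1:**
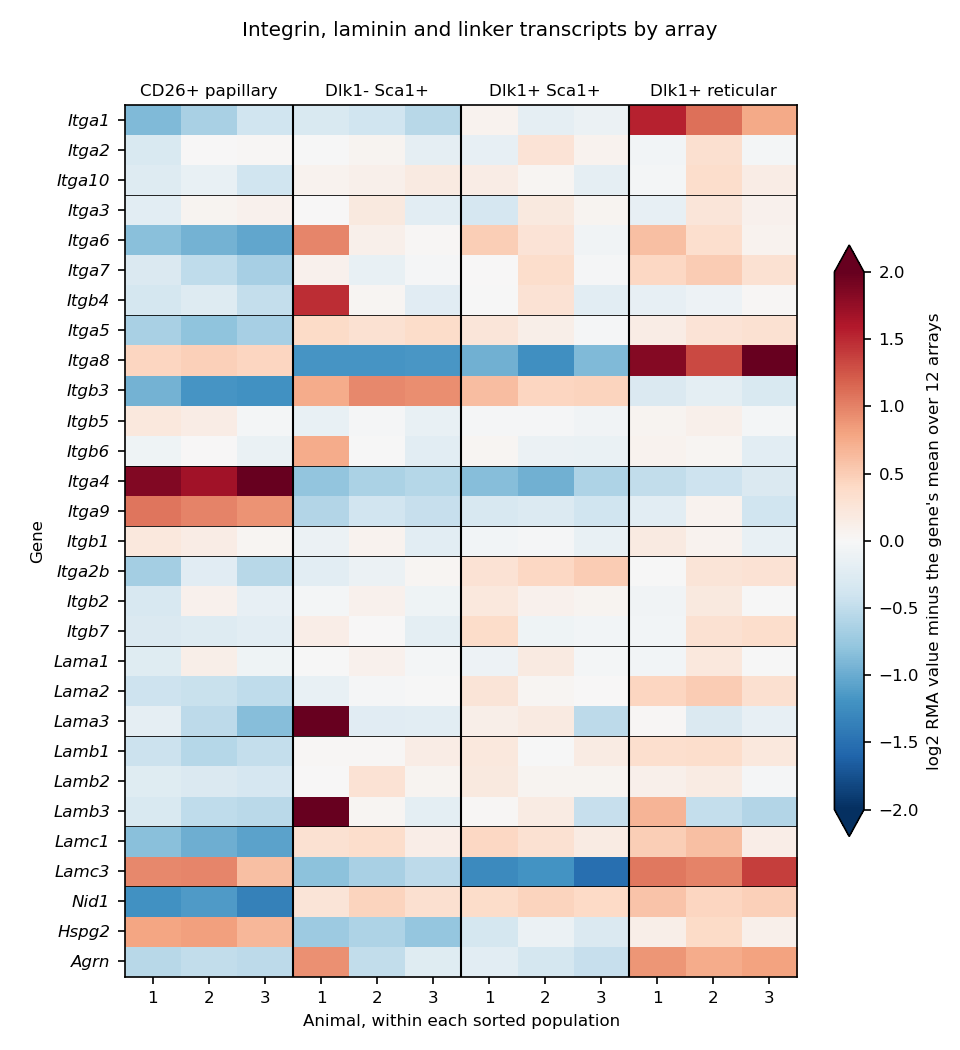
Log2 RMA value of each of the 29 members on each of the 12 arrays, minus the mean of that gene over all arrays. Columns are animals 1 to 3 within each population, rows are genes grouped by role, and the colour scale ends at 2 log2 units either way. Itga4 and Itga9 are most strongly red in the papillary columns, Nid1 and Lamc1 are blue there, and Lama3, Lamb3 and Itgb4 are red in the Dlk1- Sca1+ array of animal 1.

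Papillary cells were lower than each other population in Nid1 and in the laminin genes Lama2, Lamb1, Lamb2 and Lamc1, and higher in Hspg2 and in the integrin genes Itga4 and Itga9. Against Dlk1- Sca1+ cells, 16 members were called, 5 higher and 11 lower, against 26.4% of all genes (13.1% higher and 13.3% lower). Against Dlk1+ Sca1+ cells, 16 were called, 5 higher and 11 lower, against 28.0% of all genes (14.1% and 13.9%). Against reticular cells, 18 were called, 3 higher and 15 lower, against 27.5% of all genes (13.9% and 13.6%). Of the members, 28 had a mean of at least 5 on the log2 scale, as did 14114 genes. When only such genes were tested the same numbers of members were called, and the share of genes called was 31.5% (15.5% higher, 16.0% lower), 33.1% (16.7% and 16.4%) and 32.9% (16.6% and 16.3%) in the same order. These comparisons share the papillary arrays.

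The median difference of the members was -0.39, -0.33 and -0.37 against Dlk1- Sca1+, Dlk1+ Sca1+ and reticular cells, and the median over all genes was -0.0033, 0 and -0.0067.

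Itga4, the alpha chain of receptors for fibronectin and for Vcam1, was at 8.63, 8.45 and 8.85 (log2, animals 1 to 3) in papillary cells. It was at 5.99, 6.14 and 6.21 in Dlk1- Sca1+ cells, at 5.93, 5.81 and 6.16 in Dlk1+ Sca1+ cells and at 6.29, 6.36 and 6.49 in reticular cells. All papillary arrays lay more than 1 log2 unit above every other array. The papillary difference was 2.53 ± 0.12 (log2, SE) from Dlk1- Sca1+ cells, 2.68 ± 0.12 from Dlk1+ Sca1+ cells and 2.26 ± 0.12 from reticular cells, or 5.78-fold, 6.39-fold and 4.80-fold (adjusted p = 3.9e-09, 2.08e-09 and 1.53e-08). Each of the 5 Itga4 probe sets was called higher in all 3 comparisons.

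Itga9, whose product is close in sequence to that of Itga4 and binds tenascin-C among other ligands, was at 10.34, 10.27 and 10.18 in papillary cells. It was at 8.69, 8.89 and 8.81 in Dlk1- Sca1+ cells, at 8.96, 9.01 and 8.87 in Dlk1+ Sca1+ cells and at 9.06, 9.35 and 8.88 in reticular cells. Again no other array reached the papillary ones. The differences were 1.47 ± 0.11, 1.32 ± 0.11 and 1.17 ± 0.11 in the same order, or 2.76-fold, 2.49-fold and 2.24-fold (adjusted p = 3.16e-07, 8.25e-07 and 3.31e-06). Both chains pair with the product of Itgb1, the common beta chain. Itgb1 averaged 11.36 ± 0.08 in papillary cells, against 11.14 ± 0.14, 11.15 ± 0.07 and 11.26 ± 0.17 in the other 3. Its papillary difference of 0.22 ± 0.10 from Dlk1- Sca1+ cells (95% interval 0.00 to 0.43) did not pass (adjusted p = 0.142), but passed at 0.0375 when animals were blocked. That of 0.21 from Dlk1+ Sca1+ cells had an adjusted p of 0.15, or 0.0409 when animals were blocked.

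The other alpha chains with a call against each of the 3 populations were lower in papillary cells, except Itga8. Itga5, the classic fibronectin receptor chain, was at 9, 8.84 and 8.98 in papillary cells. It was at 10.02, 9.95 and 10.01 in Dlk1- Sca1+ cells, at 9.88, 9.76 and 9.61 in Dlk1+ Sca1+ cells and at 9.79, 9.91 and 9.94 in reticular cells. The highest papillary array was thus below the lowest of the rest. The differences were -1.05 ± 0.08, -0.81 ± 0.08 and -0.94 ± 0.08 (adjusted p = 6.26e-07, 6.87e-06 and 2.29e-06).

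Itga6 encodes a laminin receptor chain that keratinocytes and endothelial cells also carry. It was at 6.61, 6.50 and 6.41 in papillary cells, at 8.43, 7.55 and 7.48 in Dlk1- Sca1+ cells, at 7.95, 7.73 and 7.39 in Dlk1+ Sca1+ cells and at 8.06, 7.79 and 7.53 in reticular cells. Papillary arrays were again the lowest, and animal 1 was the highest in each population. The differences were -1.31 ± 0.22, -1.18 ± 0.22 and -1.29 ± 0.22 (adjusted p = 0.000621, 0.00126 and 0.000697). Without the Dlk1- Sca1+ array of animal 1 the first of these was -1.01 (adjusted p = 0.000587). The mean of 10 endothelial markers was 5.67 to 5.81 in papillary cells, 6.24 to 6.54 in Dlk1- Sca1+ cells, 6.12 to 6.78 in Dlk1+ Sca1+ cells and 6.14 to 6.37 in reticular cells, with 2, 4 and 3 of the 10 called lower in papillary cells than in the other 3 populations. None of the 10 was called higher in papillary cells. Tek, 1 of the 10, was the highest of them on each Dlk1- Sca1+ array, at 9.77, 9.68 and 9.86. It was at 5.26, 5.50 and 5.07 in papillary, 8.11, 8.05 and 8.22 in Dlk1+ Sca1+ and 6.99, 6.87 and 6.74 in reticular cells. Egfl7, another of them, lay between 7.08 and 7.59 on all arrays. The part of endothelial cells in the Itga6 result was not tested.

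Itga7, a laminin receptor chain best known from muscle, averaged 6.04 ± 0.19 in papillary cells, against 6.50 ± 0.12, 6.64 ± 0.21 and 6.94 ± 0.10 in Dlk1- Sca1+, Dlk1+ Sca1+ and reticular cells (differences -0.46, -0.60 and -0.89, adjusted p = 0.0118, 0.00192 and 8.39e-05). The mean of 10 skeletal muscle markers was 5.46 to 5.50, 5.34 to 5.49, 5.63 to 5.68 and 5.95 to 6.08 in the same order. Acta1, a muscle actin gene, was at 5.18, 5.03 and 5.15 in papillary and at 8.57, 8.20 and 7.71 in reticular cells, and Tnnc2, a troponin gene, at 6.08, 5.95 and 6.02 in papillary and at 9.11, 8.72 and 8.31 in reticular cells. Of the 10, 4 were lower and 1, Chrna1, was higher in papillary than in reticular cells (0.96), while Des did not pass there and was higher in papillary cells than in both Sca1+ populations (0.59 and 0.52). The part of muscle cells was not tested. The Itga7 difference from Dlk1- Sca1+ cells no longer passed without animal 3 or without its papillary array (adjusted p = 0.141 and 0.0575).

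Itga2b, best known as a platelet chain, averaged 7.44 ± 0.24 in papillary cells, against 7.83 ± 0.12, 8.33 ± 0.11 and 8.11 ± 0.17 in Dlk1- Sca1+, Dlk1+ Sca1+ and reticular cells. The differences from Dlk1+ Sca1+ and reticular cells were -0.89 and -0.67 (adjusted p = 9.24e-05 and 0.000974). That from Dlk1- Sca1+ cells was -0.39 (adjusted p = 0.0306) and was lost without animal 1 or animal 3 among other settings, with adjusted p of up to 0.308. The mean of 6 megakaryocyte and platelet markers, Itga2b among them, was 5.63 to 5.85 in papillary cells, 5.87 to 5.99 in Dlk1- Sca1+ cells, 5.79 to 5.96 in Dlk1+ Sca1+ cells and 5.66 to 5.95 in reticular cells. Apart from Itga2b, Gp1bb was called, at -0.44 in papillary against Dlk1- Sca1+ cells (adjusted p = 0.0280, or 0.0889 without the Dlk1- Sca1+ array of animal 1) and at 0.62 and 0.69 in Dlk1- Sca1+ against reticular and Dlk1+ Sca1+ cells, and the part of platelets was not tested. Itga10, a collagen receptor chain of cartilage, was at 6.36 ± 0.13, 6.75 ± 0.06, 6.64 ± 0.16 and 6.79 ± 0.20. Its differences of -0.39 from Dlk1- Sca1+ and -0.42 from reticular cells (adjusted p = 0.0201 and 0.0116) did not pass in every setting, with 0.22 and 0.124 as the highest adjusted p.

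Among beta chains, Itgb3, which pairs with the products of Itgav and Itga2b, ordered all 4 populations. It was at 8.79, 8.56 and 8.53 in papillary cells, at 10.48, 10.70 and 10.66 in Dlk1- Sca1+ cells, at 10.36, 10.16 and 10.18 in Dlk1+ Sca1+ cells and at 9.45, 9.54 and 9.44 in reticular cells. No arrays of different populations overlapped. The papillary difference was -1.99 ± 0.09, -1.61 ± 0.09 and -0.85 ± 0.09 from Dlk1- Sca1+, Dlk1+ Sca1+ and reticular cells (adjusted p = 4.55e-09, 2.94e-08 and 1.41e-05), which is 3.96-fold, 3.05-fold and 1.80-fold lower.

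Itgb5, another partner of Itgav, was at 9.66 ± 0.13, 9.43 ± 0.08, 9.50 ± 0.03 and 9.58 ± 0.08 in papillary, Dlk1- Sca1+, Dlk1+ Sca1+ and reticular cells. Its papillary difference of 0.22 ± 0.08 from Dlk1- Sca1+ cells had an adjusted p of 0.0601, or 0.0199 when animals were blocked. Itgb7, a lymphocyte chain, was at 7.12 ± 0.04 in papillary and 7.57 ± 0.22 in reticular cells (adjusted p = 0.025), and this call was lost without animal 2, animal 3 or any of 4 single arrays (adjusted p of up to 0.214). The mean of 10 leukocyte markers was 5.54 to 5.71 in papillary and 5.63 to 5.81 in reticular cells, and Ptprc, which encodes CD45, was at 3.81 to 4.03 over all arrays. Of the 10, 1 was called lower in papillary than in reticular cells, the macrophage gene Cd68, at 6.86, 7.04 and 7.12 in papillary and 7.84, 7.72 and 7.89 in reticular cells. The part of leukocytes was not tested.

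**Figure D2:**
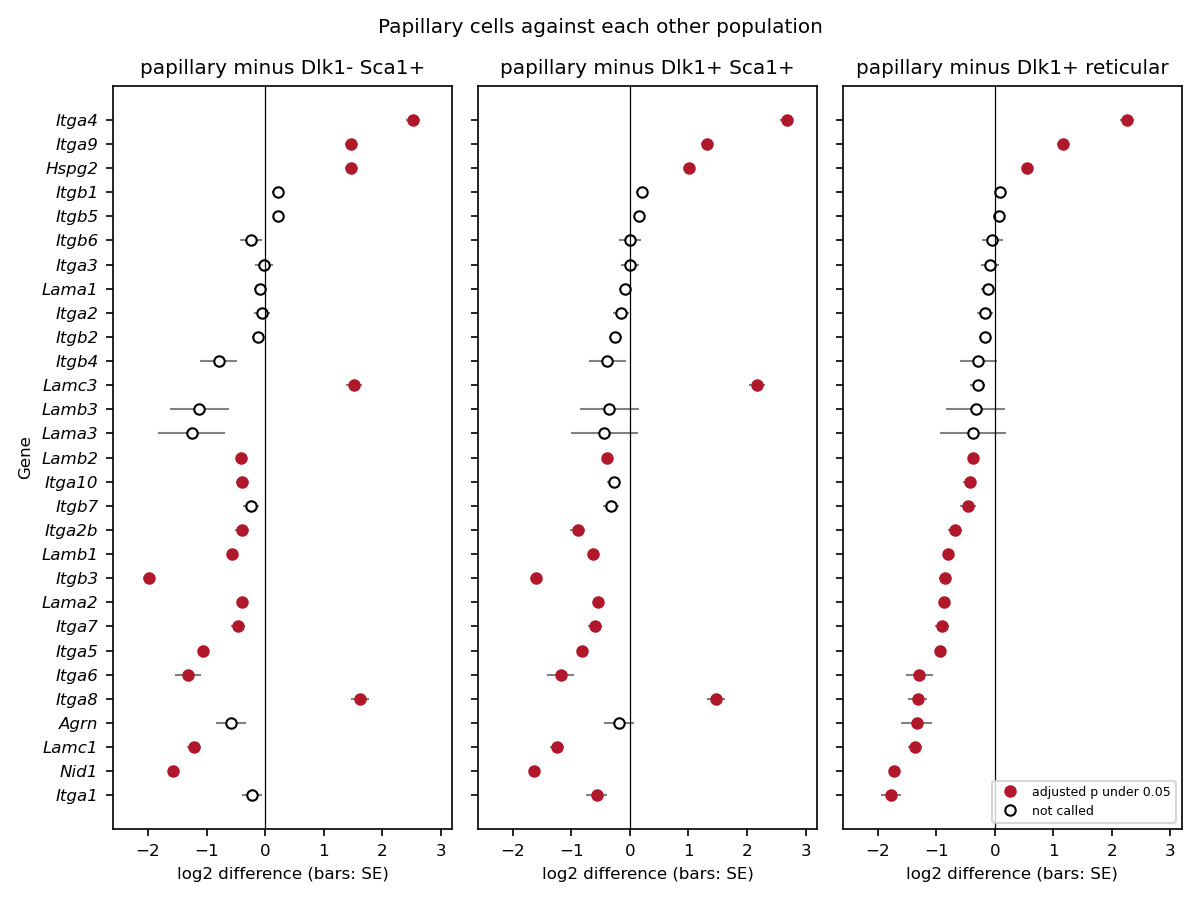
Log2 difference of papillary cells from Dlk1- Sca1+, Dlk1+ Sca1+ and reticular cells for each of the 29 members, ordered by the difference from reticular cells. Points are limma estimates with SE bars, filled where the adjusted p is under 0.05. Itga4, Itga9 and Hspg2 lie right of 0 in every panel, and Itga8 and Lamc3 lie left of 0 against reticular cells and right of 0 against the other 2.

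Nid1 had the lowest adjusted p among members in papillary against reticular cells. It was at 10.29, 10.38 and 10.16 in papillary cells, at 11.76, 11.95 and 11.82 in Dlk1- Sca1+ cells, at 11.87, 11.95 and 11.90 in Dlk1+ Sca1+ cells and at 12.07, 11.94 and 11.99 in reticular cells. The papillary arrays were all low, and the other 9 lay between 11.76 and 12.07. The differences were -1.57 ± 0.08, -1.63 ± 0.08 and -1.72 ± 0.08, or 2.96-fold, 3.10-fold and 3.30-fold lower (adjusted p = 1.06e-08, 6.59e-09 and 5.73e-09).

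The chains of laminin-211, the trimer of Lama2, Lamb1 and Lamc1, were each lower in papillary cells. Lamc1, the gamma chain of most laminins, was at 10.38, 10.24 and 10.14 in papillary cells. It was at 11.51, 11.56 and 11.35 in Dlk1- Sca1+ cells, at 11.62, 11.52 and 11.37 in Dlk1+ Sca1+ cells and at 11.70, 11.81 and 11.34 in reticular cells. Papillary arrays stood below all others. The differences were -1.22 ± 0.12, -1.25 ± 0.12 and -1.36 ± 0.12 (adjusted p = 4.61e-06, 3.52e-06 and 2.06e-06).

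Lamb1 averaged 10.38 ± 0.07 in papillary cells, against 10.94 ± 0.07, 11.00 ± 0.12 and 11.17 ± 0.08 in Dlk1- Sca1+, Dlk1+ Sca1+ and reticular cells (differences -0.56, -0.62 and -0.80, adjusted p = 0.000161, 5.92e-05 and 7.84e-06). Of its 4 probe sets 3 were called lower, and the fourth was called higher in papillary cells than in both Sca1+ populations, at 0.31 and 0.32. Lama2, whose loss causes a muscular dystrophy, averaged 10.84 ± 0.05 in papillary cells, against 11.23 ± 0.07, 11.39 ± 0.14 and 11.71 ± 0.09 in the others (differences -0.39, -0.55 and -0.87, adjusted p = 0.00316, 0.000213 and 4.51e-06). Its difference from Dlk1- Sca1+ cells had an adjusted p of up to 0.0682 without animal 2 or animal 3.

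Lamb2, a beta chain of vessel and synaptic laminins, averaged 8.32 ± 0.05 in papillary cells, against 8.73 ± 0.15, 8.71 ± 0.09 and 8.69 ± 0.10 in the others. The differences were -0.41, -0.39 and -0.37 (adjusted p = 0.00357, 0.0044 and 0.00672), and each was lost in at least 1 fit without an animal, with adjusted p of up to 0.0631.

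Hspg2 moved the other way among the linkers. It was at 11.74, 11.78 and 11.62 in papillary cells, at 10.23, 10.33 and 10.18 in Dlk1- Sca1+ cells, at 10.60, 10.84 and 10.67 in Dlk1+ Sca1+ cells and at 11.07, 11.34 and 11.06 in reticular cells. The populations did not overlap, with papillary cells on top and Dlk1- Sca1+ cells at the bottom. The papillary differences were 1.47 ± 0.10, 1.01 ± 0.10 and 0.56 ± 0.10 (adjusted p = 9.92e-08, 3.03e-06 and 0.000603). In the papillary comparisons both probe sets of Nid1 and both of Hspg2 were called in the direction given here.

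**Figure D3:**
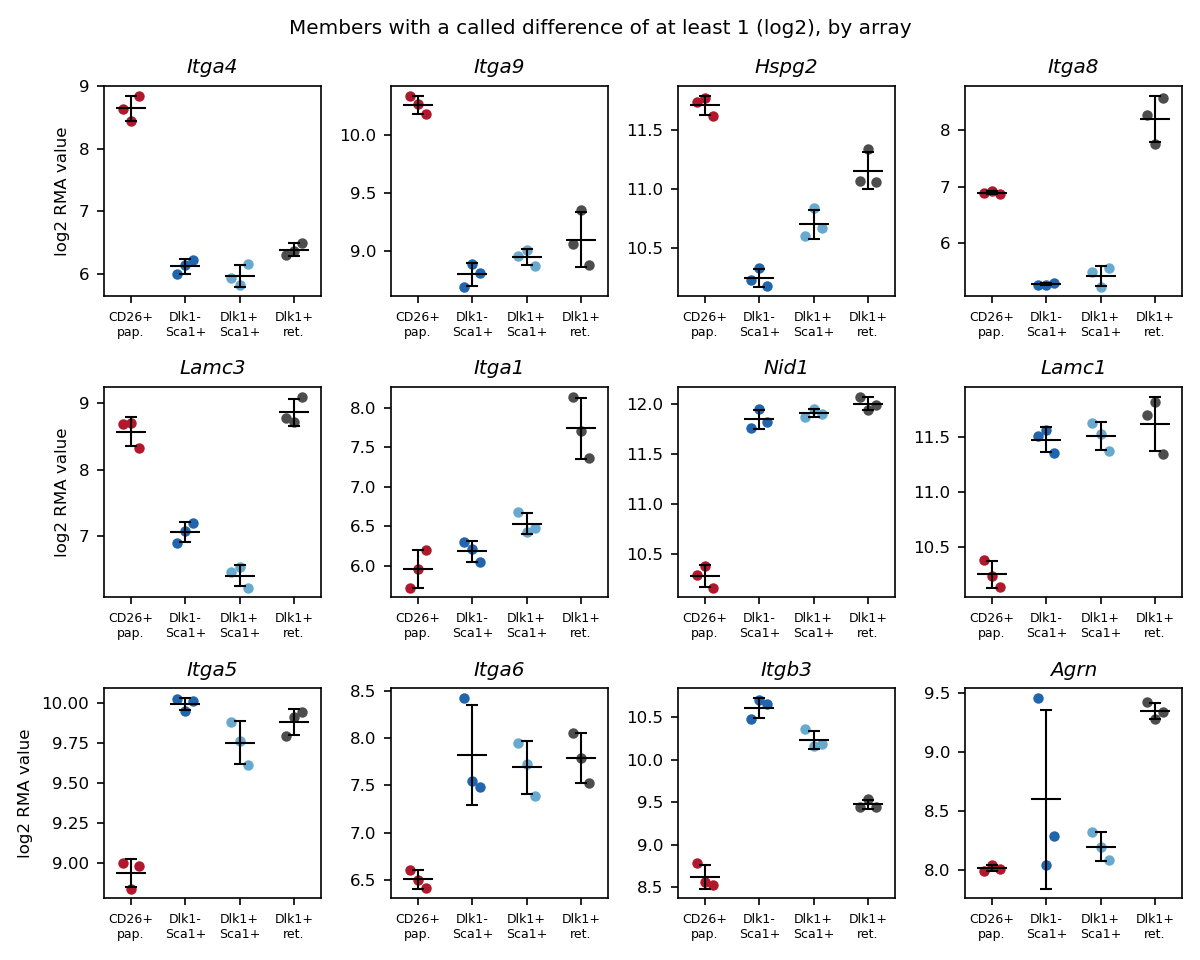
Log2 RMA values of the 12 members with a called difference of at least 1, by population, with 1 point per animal and the mean and SD in black. The vertical scales differ between panels and do not start at 0. Itga8 and Lamc3 are higher in papillary and reticular cells than in both Sca1+ populations, and papillary cells lie between the others in Itga8.

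A second pattern set papillary and reticular cells apart from both Sca1+ populations. Itga8, the alpha chain of a receptor for nephronectin, was at 6.88, 6.92 and 6.87 in papillary cells and at 5.26, 5.26 and 5.29 in Dlk1- Sca1+ cells. It was at 5.48, 5.22 and 5.56 in Dlk1+ Sca1+ cells and at 8.28, 7.76 and 8.58 in reticular cells. The reticular arrays were the highest, the papillary ones lay between, and those of the Sca1+ cells overlapped each other. The papillary difference was 1.62 ± 0.16 from Dlk1- Sca1+, 1.47 ± 0.16 from Dlk1+ Sca1+ and -1.32 ± 0.16 from reticular cells (adjusted p = 4.54e-06, 1.07e-05 and 3.37e-05).

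Lamc3, a gamma chain with a narrower distribution than Lamc1, was at 8.69, 8.70 and 8.32 in papillary cells and at 6.90, 7.07 and 7.20 in Dlk1- Sca1+ cells. It was at 6.45, 6.53 and 6.22 in Dlk1+ Sca1+ cells and at 8.77, 8.72 and 9.10 in reticular cells. All 6 arrays of the cells without Sca1 lay more than 1 log2 unit above the 6 with it. The papillary difference was 1.51 ± 0.13 from Dlk1- Sca1+ and 2.17 ± 0.13 from Dlk1+ Sca1+ cells (adjusted p = 1.86e-06 and 5.65e-08), and -0.29 ± 0.13 from reticular cells, which did not pass (adjusted p = 0.139). With the mean of the Lamc3 probe sets the difference from reticular cells passed (adjusted p = 0.0316). The dimmer Lamc3 probe set was called lower in papillary than in reticular cells, at -0.43 (adjusted p = 0.021 in limma over all probe sets).

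Reticular cells had more transcripts of several members than the Sca1+ cells. In Dlk1- Sca1+ against reticular cells 7 members were called, 1 higher and 6 lower, against 18.2% of all genes (9.36% and 8.80%), or 22.1% (11.4% and 10.7%) of genes with a mean of at least 5. Fitting the animals as blocks gave 1 higher and 11 lower, and called 24% of all genes. In Dlk1+ Sca1+ against reticular cells 8 were called, 1 higher and 7 lower, against 8.43% of all genes (4.06% and 4.37%), or 10.2% (4.96% and 5.22%) of genes with a mean of at least 5. The count of 8 was 5 without animal 2, 4 without animal 3 and 5 without the reticular array of animal 1. In these fits 3.91%, 2.91% and 6.66% of all genes were called. These comparisons share the reticular arrays.

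Itga8 differed most, by -2.94 ± 0.16 between Dlk1- Sca1+ and reticular cells and by -2.79 ± 0.16 between Dlk1+ Sca1+ and reticular cells, or 7.66-fold and 6.90-fold lower (adjusted p = 8.17e-08 and 4.2e-07). Lamc3 differed by -1.81 ± 0.13 and -2.46 ± 0.13, or 3.50-fold and 5.51-fold lower (adjusted p = 1.25e-06 and 3.94e-07). Itga1, a collagen receptor chain of mesenchymal and smooth muscle cells, was at 5.72, 5.96 and 6.20 in papillary cells, at 6.30, 6.21 and 6.04 in Dlk1- Sca1+ cells, at 6.68, 6.43 and 6.48 in Dlk1+ Sca1+ cells and at 8.14, 7.71 and 7.36 in reticular cells. The reticular arrays stood above all others, and those of papillary and Dlk1- Sca1+ cells overlapped. The differences were -1.55 ± 0.17 for Dlk1- Sca1+ and -1.21 ± 0.17 for Dlk1+ Sca1+ against reticular cells (adjusted p = 3.67e-05 and 0.000679), and -1.78 ± 0.17 for papillary against reticular cells (adjusted p = 4.87e-06). Papillary cells were also lower than Dlk1+ Sca1+ cells (-0.57, adjusted p = 0.0241), a call lost without animal 1 or animal 2 (adjusted p = 0.0867 and 0.143) and without any of 3 single arrays.

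Genes of mural cells, the pericytes and smooth muscle cells of vessels, also differed between these populations. The mean of 7 mural markers was 6.17 to 6.32 in papillary cells, 6.79 to 7.11 in Dlk1- Sca1+ cells, 7.03 to 7.84 in Dlk1+ Sca1+ cells and 7.59 to 8.47 in reticular cells. Of the 7, 4 were called lower in papillary than in reticular cells and 3 than in each Sca1+ population, 3 in Dlk1- Sca1+ than in reticular cells and 2 in Dlk1+ Sca1+ than in reticular cells, and none higher. Kcnj8, a pericyte gene, was at 4.82, 4.74 and 4.62 in papillary cells, at 5.52, 5.69 and 5.40 in Dlk1- Sca1+ cells, at 8.23, 7.75 and 7.88 in Dlk1+ Sca1+ cells and at 8.35, 8.23 and 7.72 in reticular cells. Notch3 lay between 8.10 and 8.43 in papillary cells and was at 9.99, 10.01 and 10.09 in reticular cells. Rgs5 was at 6.14, 8.98 and 6.10 in Dlk1+ Sca1+ cells and at 7.93, 9.52 and 6.54 in reticular cells, and was called in no comparison. Acta2 was at 7.27, 7.49 and 7.54 in papillary cells and at 9.16, 9.69 and 9.56 in Dlk1- Sca1+ cells. In Dlk1+ Sca1+ cells it was at 8.67, 9.06 and 8.75, and in reticular cells at 8.84, 9.58 and 9.37. Cnn1 lay between 4.99 and 5.41 on all arrays. The part of mural cells in the Itga8 and Itga1 results was not tested.

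Agrn was at 7.99, 8.04 and 8.01 in papillary cells, at 9.46, 8.04 and 8.29 in Dlk1- Sca1+ cells, at 8.32, 8.19 and 8.08 in Dlk1+ Sca1+ cells and at 9.42, 9.28 and 9.34 in reticular cells. Reticular cells were high on all arrays, and the only other array near them was the Dlk1- Sca1+ array with the high epidermal genes. Papillary cells differed by -1.33 ± 0.26 and Dlk1+ Sca1+ cells by -1.15 ± 0.26 from reticular cells (adjusted p = 0.00154 and 0.0144). The second of these was lost without animal 2, without animal 3, without the reticular array of animal 1 and without the Dlk1+ Sca1+ array of animal 3 (adjusted p = 0.0877, 0.219, 0.0507 and 0.0594). The dimmer Agrn probe set differed by -1.47 in papillary and -1.03 in Dlk1+ Sca1+ cells from reticular cells. Only the papillary difference passed there (adjusted p = 0.00496 and 0.0976 in limma over all probe sets). The Dlk1- Sca1+ difference from reticular cells was -0.75 ± 0.26 and did not pass (adjusted p = 0.0649, or 0.0385 when animals were blocked). Without the Dlk1- Sca1+ array of animal 1 it was -1.18 (adjusted p = 6.61e-06). The papillary difference from Dlk1- Sca1+ cells, -0.58 ± 0.26 (adjusted p = 0.128), was -0.15 without that array (adjusted p = 0.36).

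Smaller differences from reticular cells were seen in Hspg2, at -0.91 ± 0.10 in Dlk1- Sca1+ cells and -0.45 ± 0.10 in the Dlk1+ Sca1+ population (adjusted p = 2.29e-05 and 0.00986, the second lost without animal 1 or animal 3 at 0.0857 and 0.11). Lama2 differed by -0.48 and -0.32 (adjusted p = 0.00134 and 0.0327, the second lost in several settings at up to 0.386). Itga7 was lower in Dlk1- Sca1+ cells (-0.44, adjusted p = 0.0223, up to 0.185 without an animal) and Itga4 in Dlk1+ Sca1+ cells (-0.41, adjusted p = 0.0461, up to 0.281). Of 16 other fits, 7 lost this Itga7 call and 11 lost this Itga4 call. When animals were blocked, Itga4, Itga9, Itga2b and Lamb1 passed as well in Dlk1- Sca1+ against reticular cells, at adjusted p = 0.0285, 0.0307, 0.0424 and 0.041. The 1 member higher in both was Itgb3, by 1.14 ± 0.09 in Dlk1- Sca1+ cells and 0.76 ± 0.09 in the Dlk1+ Sca1+ population, or 2.20-fold and 1.69-fold (adjusted p = 2.86e-06 and 0.000213).

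The Sca1+ populations differed from each other in 4 members, 2 higher and 2 lower in Dlk1- Sca1+ cells, against 7.36% of all genes (3.23% and 4.13%), or 9.09% (with 5.09% lower) of genes with a mean of at least 5. Lamc3 was higher by 0.66 ± 0.13 and Itgb3 by 0.38 ± 0.09 (adjusted p = 0.00887 and 0.0245), and Itga2b (-0.50 ± 0.12) and Hspg2 (-0.46 ± 0.10) were lower (adjusted p = 0.025 and 0.00982). Without animal 1, 2 or 3 a single member was called, against 3.72%, 3.7% and 3.11% of all genes. Leaving out the Dlk1+ Sca1+ array of animal 2 or 3 or the Dlk1- Sca1+ array of animal 2 gave 2 members. The shares of all genes were then 6.17%, 5.5% and 6.9%. The highest adjusted p over the alternatives was 0.0723 for Lamc3, 0.316 for Itgb3, 0.186 for Itga2b and 0.147 for Hspg2. Lamc3, Itgb3 and Hspg2 each had a second probe set, and none of these was called. Their differences were 0.27, 0.24 and -0.16 (adjusted p = 0.274, 0.354 and 0.506 in limma over all probe sets).

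Members that keratinocytes use at the epidermal junction were high on 1 array. Lama3 and Lamb3 encode chains of laminin-332 and Itgb4 encodes the beta chain of hemidesmosomes. In the Dlk1- Sca1+ array of animal 1 Lama3 was at 8.39, against 4.90 to 5.92 on the other 11. Lamb3 was at 8.20 there, against 5.43 to 6.69 elsewhere, and Itgb4 was at 8.17, against 6.22 to 6.98. Itgb6, a chain of epithelial cells, was at 5.53 there and at 4.58 to 4.87 elsewhere. None of the 4 was called in any comparison. The papillary minus Dlk1- Sca1+ difference was -1.25 ± 0.57 for Lama3, -1.13 ± 0.50 for Lamb3 and -0.79 ± 0.32 for Itgb4 (adjusted p = 0.139, 0.132 and 0.0906), and Lamb3 passed at 0.0394 when animals were blocked. Without that array the differences were -0.30, -0.37 and -0.27 (adjusted p = 0.398, 0.49 and 0.207), and that of Itgb6 was 0.04 (adjusted p = 0.878).

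The epidermal markers had their highest mean on the Dlk1- Sca1+ array of animal 1. Their mean was 6.39 to 7.58 in papillary cells, 7.35 to 9.80 in Dlk1- Sca1+ cells, 7.19 to 8.30 in Dlk1+ Sca1+ cells and 6.66 to 8.21 in reticular cells. Epcam, sorted against, was at 8.62 on the animal 1 array of Dlk1- Sca1+ cells, against 5.62 to 6.73 on the other arrays. Of the 10 markers 1 was called, Krt10, at -1.24 in papillary against Dlk1- Sca1+ cells and at 1.72 in Dlk1- Sca1+ against reticular cells (adjusted p = 0.0371 and 0.00916), or -0.82 and 1.30 without that array (adjusted p = 0.15 and 0.0335). The part of keratinocyte transcripts in the results above was not tested.

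**Figure D4:**
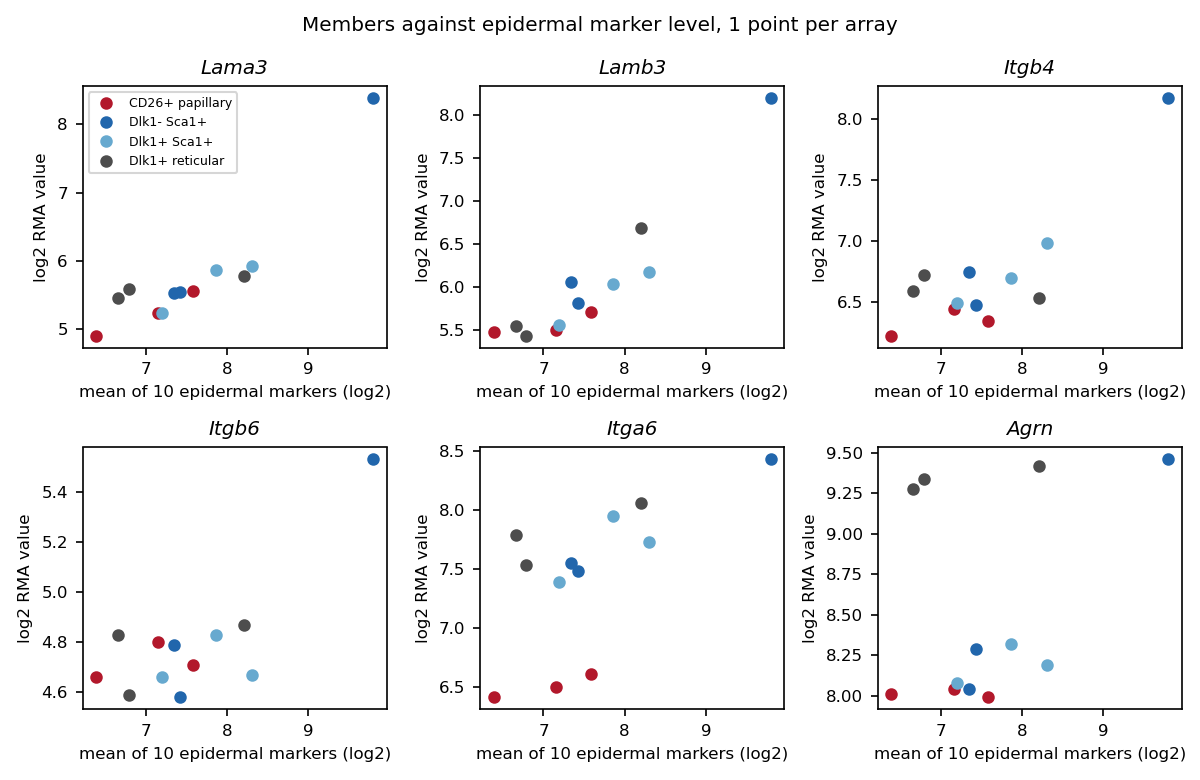
Log2 RMA value of 6 members against the mean of 10 epidermal markers, 1 point per array. The Dlk1- Sca1+ array of animal 1, at a marker mean of 9.80, has the highest value of each gene, and Agrn is at 9.28 to 9.42 in the 3 reticular arrays at lower marker levels.

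The remaining members were called in no comparison. Itga3, a laminin receptor chain, was at 7.36 ± 0.17, 7.38 ± 0.21, 7.35 ± 0.27 and 7.43 ± 0.21 in papillary, Dlk1- Sca1+, Dlk1+ Sca1+ and reticular cells, and the 95% interval of the papillary minus reticular difference was -0.41 to 0.26. Itga2, a collagen receptor chain, lay between 5.29 and 5.92 on all arrays, with an interval of -0.46 to 0.13 for the same difference. Lama1, a chain of early embryonic and kidney laminins, lay between 6.51 and 6.96 (interval -0.35 to 0.11). Itgb2, the beta chain of leukocytes, lay between 4.87 and 5.40 (interval -0.40 to 0.06). The intervals of Itga3, Itga2 and Itgb2 reach past the -0.37 called for Lamb2 in the same comparison.

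Other genes of cell adhesion to matrix were counted beside the members. The shares of all genes called higher and lower, to which these counts compare, were 13.1% and 13.3%, 14.1% and 13.9%, and 13.9% and 13.6% in papillary against Dlk1- Sca1+, Dlk1+ Sca1+ and reticular cells. They were 9.36% and 8.80% in Dlk1- Sca1+ against reticular, 4.06% and 4.37% in Dlk1+ Sca1+ against reticular and 3.23% and 4.13% in Dlk1- Sca1+ against Dlk1+ Sca1+ cells. Of 25 measured genes of the integrin adhesion plaque, 6 (24%) were higher and 8 (32%) lower in papillary cells than in the Dlk1- Sca1+ population, 6 (24%) higher and 5 (20%) lower than in Dlk1+ Sca1+ cells, and 3 (12%) higher and 8 (32%) lower than in reticular cells. The largest differences from reticular cells were those of Tln2, a talin (-1.16), Kank1 (-1.03), Tns2, a tensin (-1.02), and, in the other direction, Parvb, a parvin (0.61), Lims1 (0.31) and Parva (0.27). In Dlk1- Sca1+ against Dlk1+ Sca1+ cells, Actn1, an actinin (0.65), Vcl, which encodes vinculin (0.40), and Vasp (0.39) were among 4 higher genes, and 1 was lower, with Vasp lost without the Dlk1- Sca1+ array of animal 1 (adjusted p = 0.0582). Tns3 was the largest of the genes lower than in reticular cells, at -0.71 in Dlk1- Sca1+ cells (6 lower, 1 higher) and -1.10 in the Dlk1+ Sca1+ population (4 lower, 0 higher).

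Of 19 integrin ligands outside the basement membrane, 5 (26.3%) were higher and 4 (21.1%) lower in papillary cells than in the Dlk1- Sca1+ population, 2 (10.5%) higher and 5 (26.3%) lower than in Dlk1+ Sca1+ cells, and 1 (5.26%) higher and 8 (42.1%) lower than in reticular cells. Tnc, the tenascin-C gene (-1.26), and Vtn, the vitronectin gene (-1.25), were lower in papillary cells than in reticular ones. Vcam1, a ligand of the receptors that contain the Itga4 chain, was higher in papillary cells than in the Dlk1- Sca1+ population by 0.44. It was at 7.54, 7.57 and 7.31 in papillary, 7.55, 7.69 and 7.63 in Dlk1+ Sca1+ and 7.59, 7.65 and 7.34 in reticular cells. Tgfbi differed more, at 10.92, 10.68 and 10.96 in papillary and 8.98, 8.86 and 9.18 in Dlk1- Sca1+ cells. Dlk1- Sca1+ cells had 8 of the 19 lower than reticular cells and none higher, led by Tgfbi (-1.78), Emilin1 (-1.28) and Ccn2 (-1.17), and 5 lower than Dlk1+ Sca1+ cells and none higher. In Dlk1+ Sca1+ against reticular cells 5 were lower and 1, Ccn3, was higher (0.67).

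Of 16 genes of the dystroglycan complex and other laminin or agrin receptors, 6 (37.5%) were higher and 3 (18.8%) lower in papillary cells than in the Dlk1- Sca1+ population, 4 (25%) higher and 3 (18.8%) lower than in Dlk1+ Sca1+ cells, and 3 (18.8%) higher and 3 (18.8%) lower than in reticular cells. Dmd, which encodes dystrophin, was higher in papillary cells in each of these, by 1.52, 1.93 and 1.27, and Sntb1, a syntrophin gene, by 0.80, 1.05 and 0.98. Without the Dlk1- Sca1+ array of animal 1, the first Sntb1 difference was 1.16. Musk, the muscle kinase in the agrin pathway, was lower in papillary cells than in reticular ones (-0.44). In Dlk1- Sca1+ against reticular cells 2 were higher, among them Dag1, the dystroglycan gene (0.46), and 4 lower, and in Dlk1+ Sca1+ against reticular cells 0 were higher and 2 lower. Between the Sca1+ populations 3 were lower in Dlk1- Sca1+ cells, led by Sntb2 (-0.50).

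Of 19 other basement membrane genes, 6 (31.6%) were higher and 5 (26.3%) lower in papillary cells than in the Dlk1- Sca1+ population, 5 (26.3%) higher and 6 (31.6%) lower than in Dlk1+ Sca1+ cells, and 5 (26.3%) higher and 7 (36.8%) lower than in reticular cells. Fras1, which encodes a protein under the epidermis, was at 9.86, 9.84 and 10.02 in papillary cells, at 8.24, 6.62 and 7.05 in Dlk1- Sca1+ cells, at 6.57, 6.69 and 6.92 in Dlk1+ Sca1+ cells and at 6.59, 6.09 and 6.70 in reticular cells. All papillary arrays were above the rest, of which the highest was the Dlk1- Sca1+ array with the high epidermal genes. Its papillary differences were 2.60, 3.18 and 3.45, the first of them 3.07 without that array. Col7a1, the collagen of anchoring fibrils, was higher by 2.10, 3.17 and 1.57, and Hmcn1, a hemicentin gene, by 0.84, 1.05 and 1.84, the first of them lost without that array (0.78, adjusted p = 0.0672). Col15a1, the collagen of vessel and muscle basement membranes, was lower in each (-2.25, -1.90 and -1.07), as was Frem1, whose product forms a complex with that of Fras1 (-1.10, -1.54 and -1.71). In Dlk1- Sca1+ against reticular cells Col18a1 (1.28), Col15a1 (1.18) and Hmcn1 (1.00) led 5 higher genes, and Fbln1 (-1.16) led 5 lower ones. In Dlk1+ Sca1+ against reticular cells 3 were higher and 4 lower, led by Col15a1 (0.83) and Col7a1 (-1.60), and in Dlk1- Sca1+ against Dlk1+ Sca1+ cells 3 were higher and 1 lower, led by Col7a1 (1.07) and Fbln1. Npnt is in both this list and that of the ligands.

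The median difference of the 4 lists in papillary against reticular cells was -0.14 for adhesion plaque genes, -0.09 for ligands, -0.02 for dystroglycan complex genes and -0.25 for other basement membrane genes, against -0.37 for the members.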

How the data were processed

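Transcripts of 4 dermal fibroblast populations, each sorted from 3 littermates, were measured on 12 Affymetrix arrays after amplification over 21 cycles, per the labels' protocols. The authors deposited log2 expression values computed with RMA (affy), according to the tools listed per the submitters' processing notes. Neither versions nor a genome build are given in the sources used here. The deposited log2 values ran from 3.30 to 13.27, with array medians of 6.21 to 6.34, and no further normalization was applied. RMA compresses differences of dim probe sets. The number of arrays, 3 per population, limits the precision.

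Of 45141 probe sets, 104 controls were left out, and 28898 had 1 symbol in the platform annotation. The brightest per gene gave 17097 genes. One limma 3.58.1 (R 4.3.3) model over all genes had a coefficient per population, 8 residual and 4.475 prior degrees of freedom. Each of the 6 pairs had its own contrast, with Benjamini-Hochberg adjustment over the 17097 genes. A gene was called, and is described as higher or lower, at an adjusted p under 0.05. Values per array are given for the 12 members with a called difference of at least 1 and arrays that do not overlap. Of each other list, up to 3 called genes per direction are named.

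Of 43 called member differences where a gene had several probe sets, 35 had all probe sets called alike and 2 had 1 called the other way. Arrays with the same replicate number were taken as from 1 animal, since the labels describe littermates. Deviations from the population means correlated between such arrays with a mean r across genes of 0.266 (0.086 to 0.432, 17 of 18 pairs above 0.1). The members, lists and settings were chosen with earlier results of these data known.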

Additional observations from a re-analysis of the deposited data

How the results depend on the processing

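Each member difference was recomputed in 15 or 16 other fits, and no called difference changed sign. Of 69 called differences, 50 were called in every fit and 19 were lost in at least 1, and of 105 that were not called, 18 passed in at least 1. The count of members called in Dlk1- Sca1+ against reticular cells, 7 (with 18.2% of all genes), was 11 with the mean of the probe sets of each gene (18.6%) and 12 with animals as a replicate block (24%), and the block moved no other count by more than 1.5 times. Leaving out an animal or an array also lowered the share of all genes called, given here in brackets. It gave 12 to 18 members for papillary against Dlk1- Sca1+ cells (18.2% to 24.4%). Against Dlk1+ Sca1+ cells it gave 15 to 17 (20.1% to 25.3%) and against reticular cells 15 to 18 (19% to 27%). It gave 6 to 8 for Dlk1- Sca1+ against reticular cells (9.83% to 16.8%) and 4 to 7 for Dlk1+ Sca1+ against reticular cells (2.91% to 6.66%). For Dlk1- Sca1+ against Dlk1+ Sca1+ cells it gave 1 to 4 (3.11% to 6.9%), and for the F-test 15 to 19 (23.1% to 35.3%). Centring the arrays, repeated quantile normalization, the filter on dim genes, another variance prior and fits of 2 populations moved no count by more than 1.5 times. Without the Dlk1- Sca1+ array of animal 1, a setting chosen for the other lists after seeing the data, the genes called in papillary against Dlk1- Sca1+ cells were 4 higher and 7 lower of the adhesion plaque genes, 3 and 4 of the ligands, 4 and 2 of the dystroglycan complex genes and 3 and 5 of the other basement membrane genes. In Dlk1- Sca1+ against Dlk1+ Sca1+ cells the adhesion plaque genes called were 2 higher and 1 lower. The causes were not tested.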
